A study of Mus musculus with 6 samples.

Results

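*Nras* and *Hras*, which encode RAS GTPases, and 7 genes encoding feedback inhibitors of MAPK signaling (*Dusp4*, *Dusp5*, *Dusp6*, *Spry1*, *Spry2*, *Spred1* and *Spred2*) were examined in I1DN leukemia cells from mice treated with vehicle or AG636. These 9 genes were taken from a written list, of 54838 genes in the count table. Of these, 7 had enough counts to be tested, among 11092 genes tested in all. I1DN is a murine AML made by introducing IDH1R132H, DNMT3AR882H and NrasG12D together into hematopoietic stem and progenitor cells of fetal liver on a C57BL/6 background, so every sample of both groups carries the same 3 mutant alleles. Leukemic cells were grown in irradiated congenic Ptprca recipients, and 3 mice received vehicle and 3 received AG636, which inhibits DHODH, an enzyme of pyrimidine synthesis, by oral gavage (b.i.d., 100 mg/kg). The study gives differing durations of treatment for these samples, and their age is not given in the sources used here. Recipients keep hematopoietic cells of their own, and the cells were sorted from bone marrow and spleen as an immature cKit-positive fraction with little or no CD11b. Each leukemia of the study was passaged from frozen cells of a diseased mouse, so the mice are separate recipients and not separate leukemias. Libraries captured the 3′ end of polyadenylated transcripts, and expression levels are in CPM (counts scaled to a common library size after TMM normalization).

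RAS proteins are membrane-anchored switches that are active when bound to GTP and that pass growth factor signals to the RAF, MEK and ERK kinases. The mutant Nras of this leukemia is held in the GTP-bound state. ERK activity induces transcripts of its own inhibitors. Dual-specificity phosphatases (DUSPs) remove phosphate from ERK, Sprouty proteins act between receptors and RAS, and SPRED proteins bring the RAS GTPase-activating protein neurofibromin to the membrane.

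In the I1DN cells, *Dusp6* rose 2.09-fold with AG636 and *Hras* fell to 0.533 of its vehicle level, while *Nras*, *Dusp5*, *Spry2*, *Spred1* and *Spred2* did not pass the threshold. Thus 1 of the 7 members tested was called higher, where 10.3% of all genes tested were, and 1 was called lower, where 11.0% were, at an adjusted p under 0.05. Together these are 28.6% of the members tested, beside 21.3% of all genes tested. With so few members, these shares describe the list and set it apart from nothing.

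The 3′ ends of the coding sequences of *Nras* and *Hras* are shown because they encode the end at which RAS is anchored to the membrane. These are reference sequences of GENCODE release M21 (mm10), written 5′ to 3′ in the sense of the gene, and not sequences of the leukemia. The last 60 bases before the stop codon lie at chr3:103063387-103063446 on the plus strand for *Nras* and at chr7:141191351-141191410 on the minus strand for *Hras*, with the codons of the CAAX motif, which receives the farnesyl group, in capitals.
Nras: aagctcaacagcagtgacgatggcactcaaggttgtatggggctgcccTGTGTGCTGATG
Hras: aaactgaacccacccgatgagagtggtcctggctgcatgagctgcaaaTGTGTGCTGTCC
Both genes encode 189 codons. Their coding bases were identical at 75.3% of 567 positions and at 51.7% of the last 60, the part that differs most among RAS proteins. The codon of *Nras* changed in this leukemia lies between 704 and 4261 bases from the end of its principal transcripts, far from the 3′ ends that these libraries read. The counts therefore do not tell mutant and normal *Nras* apart, and the sources used here do not say whether the transcript of the NrasG12D construct carries the 3′ end that is counted.

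*Nras* (ENSMUSG00000027852, chromosome 3 from 103058285 to 103067914 of mm10) had 188, 146 and 172 CPM in the vehicle mice and 193, 167 and 175 CPM in the AG636 mice. The groups overlapped, with means of 169 ± 21.4 and 179 ± 13.3 CPM (SD, n = 3 each) from 3004 and 2658 counts. Its log2 fold change was 0.08 (standard error, SE, 0.13, 95% interval -0.21 to 0.37, edgeR adjusted p = 0.678, that is, the p of edgeR's quasi-likelihood test after Benjamini-Hochberg adjustment over all genes tested), and 86.3% of all genes tested had a larger change in either direction.

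*Hras* (ENSMUSG00000025499, chromosome 7 from 141189105 to 141194005) had 152, 121 and 87.2 CPM with vehicle and 65.8, 66.6 and 59.4 CPM with AG636. All AG636 samples lay below all vehicle samples, and the vehicle mice were the more variable, with means of 119.9 ± 32.3 and 63.9 ± 3.92 CPM (SD, n = 3 each), from 2200 and 951 counts. The groups likewise did not overlap for 41.1% of all genes tested. The log2 fold change of *Hras* was -0.91 (SE 0.19, 95% interval -1.33 to -0.49, edgeR adjusted p = 0.0115), and 12.1% of the genes tested had a larger change. In an exact permutation test it had a two-sided p of 0.1, the smallest that 3 mice against 3 allow. In such bulk samples, fewer cells of a type and less RNA per cell cannot be told apart.

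Within each library, the log2 ratio of *Hras* to *Nras* counts does not depend on how libraries are scaled. It was -0.31, -0.27 and -0.98 with vehicle and -1.55, -1.33 and -1.56 with AG636. The ratio was lower in every AG636 mouse, by 0.96 on average (exact permutation test, two-sided, p = 0.1, and 0.15 after Benjamini-Hochberg adjustment over 3 ratios). With 3 mice in each group this test cannot reach 0.05.

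Erythroid genes moved with *Hras*. Of 6 erythroid markers, 2 were called lower, among them *Klf1*, the erythroid transcription factor (log2 fold change -1.10, edgeR adjusted p = 0.0238), none was called higher and none was at 0 in all samples. The summed level of the list overlapped between the groups, from 967 to 2622 CPM with vehicle and from 1285 to 1885 CPM with AG636. Vehicle replicate 1 had both the highest sum and the highest *Hras* level. Without it the log2 fold change of *Hras* was -0.73 (edgeR adjusted p = 0.0247). Vehicle replicate 3 had the lowest sum of all mice, while its *Hras* level, 87.2 CPM, was above that of every AG636 mouse. Without vehicle replicate 3 the log2 fold change of *Hras* was -1.11 (edgeR adjusted p = 0.00518). The part of erythroid cells in the fall of *Hras* was not tested.

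**Figure D1:**
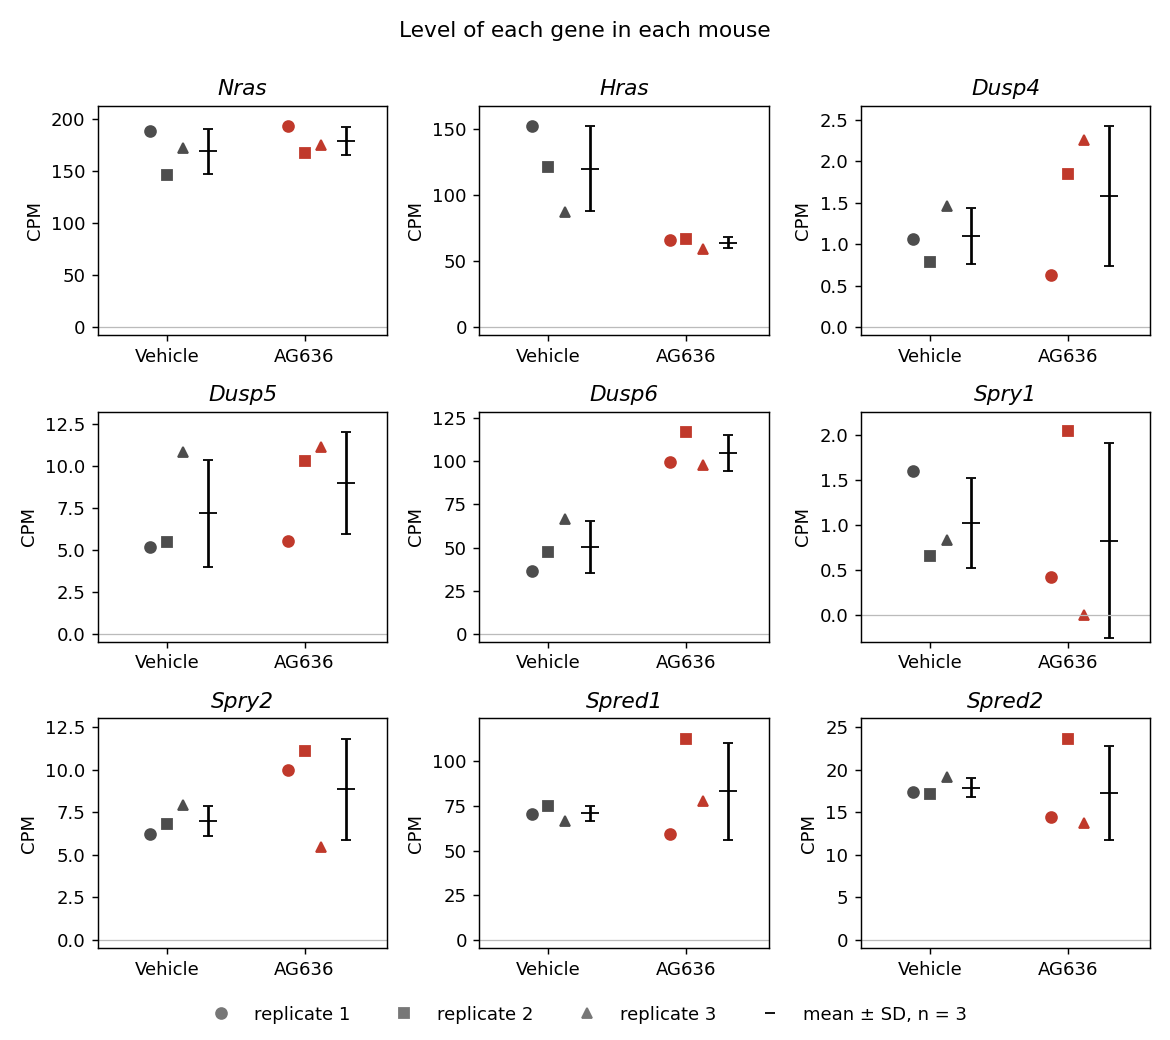
Level of each of the 9 genes (CPM, linear axis from 0) in the 3 vehicle mice (grey) and the 3 AG636 mice (red), with the mean and SD beside the points. The groups are separate for *Hras*, at 87.2 CPM or more against 66.6 or less, and for *Dusp6*, at 66.6 CPM or less against 97.6 or more, and overlap for the other genes.

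*Dusp6* encodes a cytoplasmic phosphatase selective for ERK, and its transcript is a common readout of ERK activity. The gene (ENSMUSG00000019960, chromosome 10 from 99263231 to 99267489) had 36.6, 47.6 and 66.6 CPM with vehicle and 99.9, 117 and 97.6 CPM with AG636. Every AG636 mouse was above every vehicle mouse, with means of 50.3 ± 15.2 and 105 ± 10.5 CPM (SD, n = 3 each), from 891 and 1560 counts. The log2 fold change was 1.06 (SE 0.20, 95% interval 0.62 to 1.51, edgeR adjusted p = 0.00799), and 7.74% of all genes tested had a larger change. The exact permutation test gave a two-sided p of 0.1, again the smallest possible. *Dusp6* and *Hras* each stayed past the threshold in all 13 alternatives tried at that threshold.

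Neutrophil genes were also higher with AG636. Of 7 neutrophil markers 5 were called higher, none was called lower and none was at 0 in all samples. *Ltf*, which encodes the granule protein lactoferrin, had a log2 fold change of 1.16 (edgeR adjusted p = 0.00731). The summed level of the 7 markers was between 937 and 2260 CPM with vehicle and between 2655 and 5502 CPM with AG636. *S100a8*, the marker with the highest level, was not called (edgeR adjusted p = 0.0872). The sums of the monocyte and macrophage markers, given below, were likewise separate between the groups. *Itgam*, which encodes CD11b and was selected against by the sort, also rose, from 19.1 ± 7.42 to 44.0 ± 14.6 CPM (SD, n = 3 each). Without AG636 replicate 1, which had the highest neutrophil sum, the log2 fold change of *Dusp6* was 1.09. The highest *Dusp6* level, 117 CPM, was that of AG636 replicate 2. The part of more mature cells in the rise of *Dusp6* was not tested.

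**Figure D2:**
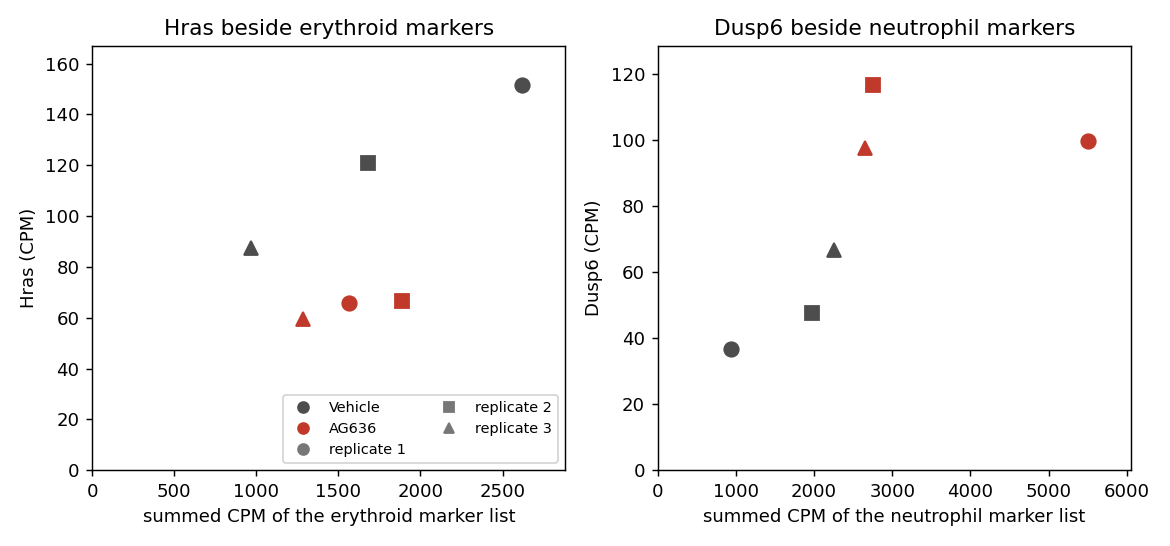
Left, *Hras* against the summed level of 6 erythroid markers, and right, *Dusp6* against that of 7 neutrophil markers (all in CPM, linear axes from 0), with 1 point for each mouse, grey for vehicle and red for AG636. The erythroid sums of the groups overlap while their *Hras* levels do not, and both the neutrophil sums and the *Dusp6* levels are higher in every AG636 mouse.

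The promoters of these genes that moved are shown next, as the 250 bases before the annotated start in RefSeq (mm10, sense of the gene). The RefSeq table held a promoter for 8 of the 9 members, all but *Dusp4*. Capitals mark the letters CCGGAA, a core that ETS factors bind, GGGCGG, the GC box bound by SP1, CACGTG, the E-box, and TGACGTCA, the cAMP response element, on either strand, and no match overlapped another.
Hras, chr7:141194005-141194254, minus strand: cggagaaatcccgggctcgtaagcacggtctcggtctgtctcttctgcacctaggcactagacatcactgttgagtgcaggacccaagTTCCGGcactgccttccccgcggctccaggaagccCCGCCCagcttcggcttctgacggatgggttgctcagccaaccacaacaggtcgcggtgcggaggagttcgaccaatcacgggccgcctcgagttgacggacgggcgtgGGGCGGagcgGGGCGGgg
Dusp6, chr10:99262981-99263230, plus strand: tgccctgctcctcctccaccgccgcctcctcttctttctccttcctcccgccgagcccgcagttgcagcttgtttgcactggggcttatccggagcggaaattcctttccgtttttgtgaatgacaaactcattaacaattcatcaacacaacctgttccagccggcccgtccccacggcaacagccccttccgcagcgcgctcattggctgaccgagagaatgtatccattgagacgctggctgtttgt
The *Hras* window held 1 CCGGAA and 3 GGGCGG, and the *Dusp6* window held none of these letters. Among 32851 RefSeq promoters of the same length, 12% held CCGGAA, 32.7% GGGCGG, 6.02% CACGTG and 1.55% TGACGTCA. Of the other members, *Nras* held 2 GGGCGG and 1 CACGTG, *Spred1* held 2 GGGCGG, *Spry1*, *Spred2* and *Dusp5* held 1 each, and *Spry2* held none. These matches describe letters and not binding.

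*Dusp5* and *Dusp4* encode nuclear phosphatases, the former selective for ERK and the latter acting on several MAP kinases. *Dusp5* (ENSMUSG00000034765, chromosome 19 from 53529109 to 53542431) had 5.15, 5.47 and 10.8 CPM with vehicle and 5.50, 10.3 and 11.1 CPM with AG636, so that vehicle replicate 3 lay with the upper AG636 mice. The means were 7.15 ± 3.19 and 8.96 ± 3.02 CPM (SD, n = 3 each), from 123 and 135 counts. Its log2 fold change was 0.35 (SE 0.37, 95% interval -0.47 to 1.17, edgeR adjusted p = 0.521). The log2 ratio of *Dusp5* to *Dusp6* counts was lower in every AG636 mouse, at -4.16, -3.50 and -3.13 against -2.81, -3.10 and -2.61 with vehicle (difference -0.75, exact permutation test, two-sided, p = 0.1, adjusted 0.15). *Dusp4* (ENSMUSG00000031530, chromosome 8 from 34807297 to 34819894) had 6, 6 and 7 counts with vehicle and 3, 9 and 12 counts with AG636, too few to test in the filtered fit. Without the filter its log2 fold change was 0.53 with an SE of 0.64, where 3 counts correspond to between 0.391 and 0.635 CPM across the libraries.

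Of the Sprouty genes, *Spry2* (ENSMUSG00000022114, chromosome 14 from 105891947 to 105896819) had 6.22, 6.78 and 7.91 CPM with vehicle and 9.95, 11.1 and 5.46 CPM with AG636. The AG636 mice thus held both the highest values and the lowest one, with means of 6.97 ± 0.863 and 8.83 ± 2.98 CPM (SD, n = 3 each), from 125 and 130 counts. Its log2 fold change was 0.34 (SE 0.30, 95% interval -0.33 to 1.01, edgeR adjusted p = 0.446), an interval that leaves room for a doubling. *Spry1* (ENSMUSG00000037211, chromosome 3 from 37639947 to 37644598) was near the limit of detection, with 9, 5 and 4 counts with vehicle and 2, 10 and 0 counts with AG636. Without the filter its log2 fold change was -0.34 with an SE of 0.76. An exon of *Spry1* overlaps *Gm42922*, a gene of the other strand with 3 counts against the 30 of *Spry1*, and exons of the other 8 members overlap no other gene in the deposited table.

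Of the SPRED genes, *Spred1* (ENSMUSG00000027351, chromosome 2 from 117121374 to 117182279) had 70.7, 75.1 and 66.4 CPM with vehicle and 59.3, 113 and 77.9 CPM with AG636. AG636 replicate 2 stood above the others, and the vehicle values lay within the range of the AG636 values, with means of 70.7 ± 4.33 and 83.3 ± 27.1 CPM (SD, n = 3 each). The log2 fold change was 0.23 (SE 0.21, 95% interval -0.23 to 0.69, edgeR adjusted p = 0.443), and -0.05 without that mouse. *Spred2* (ENSMUSG00000045671, chromosome 11 from 19924375 to 20024026) had 17.4, 17.1 and 19.2 CPM with vehicle and 14.4, 23.6 and 13.7 CPM with AG636, again highest in AG636 replicate 2. The means were 17.9 ± 1.12 and 17.3 ± 5.53 CPM (SD, n = 3 each). Its log2 fold change was -0.05 (SE 0.24, 95% interval -0.58 to 0.47, edgeR adjusted p = 0.895). The log2 ratio of *Spred1* to *Spred2* counts was 2.02, 2.13 and 1.79 with vehicle and 2.03, 2.25 and 2.50 with AG636, which overlapped (exact permutation test, two-sided, p = 0.2, adjusted 0.2).

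**Figure D3:**
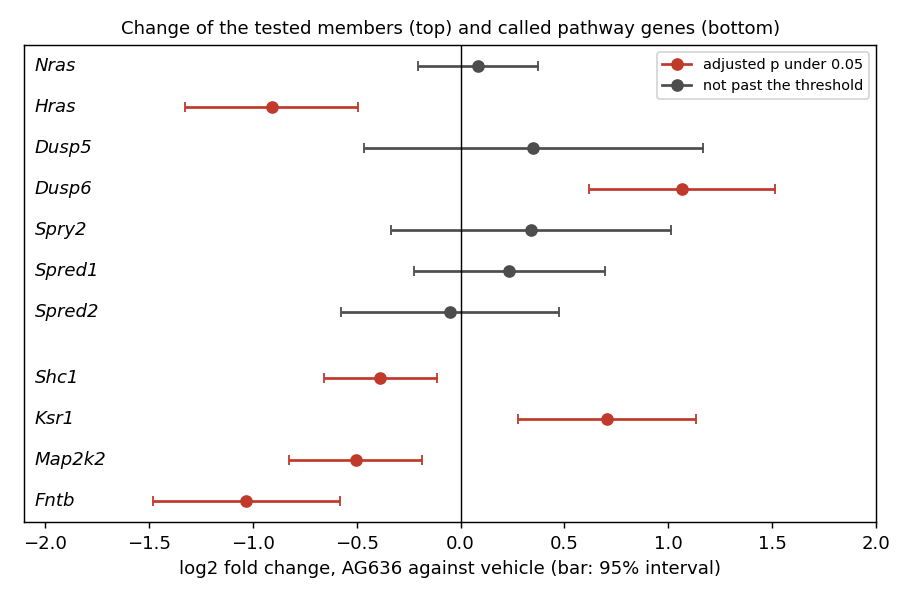
Log2 fold change of AG636 against vehicle for the 7 members tested and, below, for the 4 other pathway genes called, with 95% intervals of the fit to 3 mice in each group. *Hras*, *Shc1*, *Map2k2* and *Fntb* lie below 0 and *Dusp6* and *Ksr1* above it, and the intervals of the other members include 0.

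The other genes of the pathway were read from 6 written lists of 63 genes, of which 62 were in the table and 50 could be tested. Of these 50 genes, 1 was called higher and 3 were called lower, beside 10.3% and 11.0% of all genes tested. Their median log2 fold change was 0.16, against 0.03 over all genes tested. Over all genes 1145 were called higher and 1222 lower, and with library size alone in place of TMM these numbers were 1473 and 915. The 4 pathway genes called were *Ksr1*, *Map2k2*, *Shc1* and *Fntb*.

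In the list of the RAS-ERK cascade, 1 of 16 genes tested was called higher and 2 lower. *Ksr1*, a scaffold that brings RAF, MEK and ERK together, had 21.3, 23.3 and 23.7 CPM with vehicle and 29.0, 45.6 and 36.9 CPM with AG636. The groups did not overlap and its log2 fold change was 0.70 (SE 0.19, edgeR adjusted p = 0.0288). The call was lost when any one of vehicle replicates 1, 2 and 3 or AG636 replicates 2 and 3 was left out. *Map2k2*, which encodes the ERK kinase MEK2, had 132, 133 and 107 CPM with vehicle and 91.9, 95.8 and 74.9 CPM with AG636. Every AG636 mouse was below every vehicle mouse and the log2 fold change was -0.51 (SE 0.14, edgeR adjusted p = 0.0338). With library size alone its edgeR adjusted p was 0.0559, and it also exceeded 0.05 when vehicle replicate 1 or 2 or AG636 replicate 1 or 3 was left out. *Shc1*, an adaptor between receptors and the RAS exchange factor SOS, had 68.6, 69.7 and 66.6 CPM with vehicle and 52.7, 54.0 and 50.04 CPM with AG636. Its log2 fold change of -0.39 was just past the threshold (SE 0.12, edgeR adjusted p = 0.0477), and 3 of 13 alternatives, none of them a fit that left out a mouse, kept the call. *Mapk3*, which encodes ERK1, had a log2 fold change of 0.55 and was not called (edgeR adjusted p = 0.0783).

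In the list of RAS membrane processing, *Fntb*, the beta subunit of the farnesyltransferase that modifies the CAAX motif shown above, was 1 of 9 genes called, and it was lower. It had 30.9, 30.5 and 26.4 CPM with vehicle and 13.1, 18.1 and 11.9 CPM with AG636, without overlap. Its log2 fold change was -1.03 (SE 0.20, edgeR adjusted p = 0.00946), and all 13 alternatives tried at that threshold kept the call. *Fnta*, the alpha subunit, had 95.6 CPM with vehicle and 88.2 CPM with AG636 and a log2 fold change of -0.11 (edgeR adjusted p = 0.573). An exon of *Fntb* overlaps *Churc1* on the same strand (748 and 306 counts in total), and since the handling of such shared stretches is not given in the sources used here, its level is uncertain there.

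**Figure D4:**
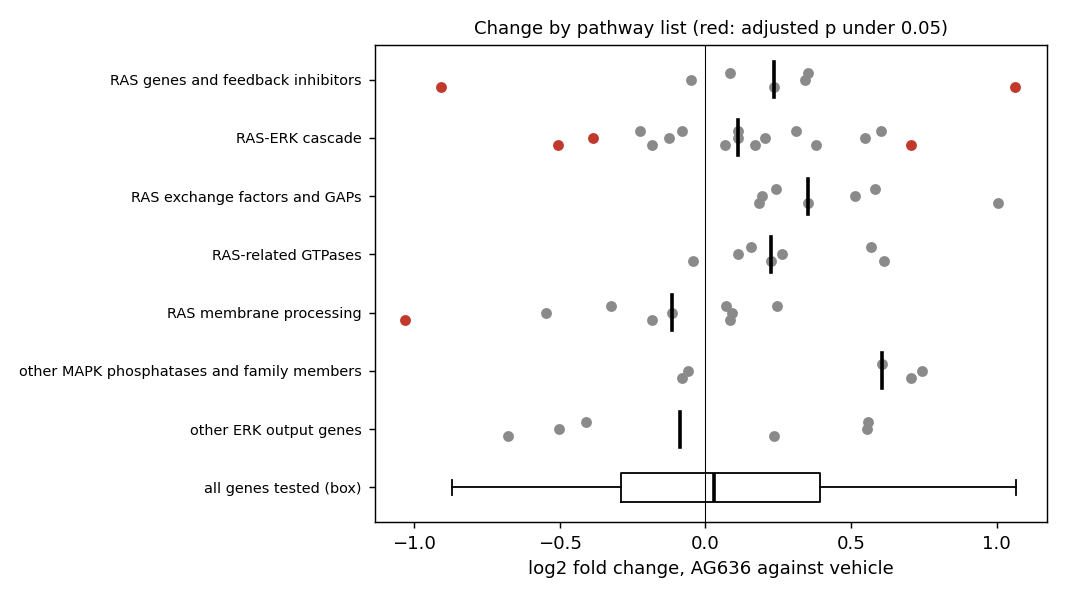
Log2 fold change of each gene tested in the 9-gene list and in 6 pathway lists (points, red where called, black bar at the median), with a box for all 11092 genes tested (quartiles, whiskers from the 5th to the 95th percentile). All 7 exchange factors and GAPs tested lie above 0, as do 5801 of all 11092 genes tested. None of the 7 was called by edgeR in the fit shown.

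The edgeR test called 0 of 7 exchange factors and GTPase-activating proteins, 0 of 7 RAS-related GTPases, 0 of 5 other phosphatases and family members and 0 of 6 other ERK output genes, with 2, 1, 3 and 2 at an unadjusted p under 0.05. DESeq2 called 1, 0, 2 and 0 of them and limma-voom 0, 0, 2 and 0. These were *Rasa3*, a GTPase-activating protein, with DESeq2 (log2 fold change 0.57, adjusted p = 0.039), and *Dusp1* and *Dusp2* with both tools. All 7 exchange factors and GTPase-activating proteins had log2 fold changes above 0, with a median of 0.35. They ranged from 0.18 for *Nf1*, which encodes neurofibromin, to 1.004 for *Rasgrp4*. *Rasgrp4* had only 30 counts with vehicle and 51 with AG636, with an SE of 0.48 and an interval of -0.07 to 2.08 that includes 0. An exon of *Rasgrp4* overlaps *Fam98c*, a gene of the other strand with 3840 counts against the 81 of *Rasgrp4*. The use of strand is not given in the sources used here, so the level of *Rasgrp4* is uncertain. *Etv5* and *Etv4*, ETS factors induced by ERK, had log2 fold changes of 0.24 and -0.50 with standard errors of 0.24 and 0.47. *Phlda1*, another ERK target, had 11.2, 12.8 and 13.3 CPM with vehicle and 18.8, 18.7 and 17.3 CPM with AG636, and its edgeR adjusted p was 0.0582. The rest of this list that was tested, *Ier3*, *Ccnd1* and *Fosl1*, had log2 fold changes of 0.56, -0.41 and -0.68 (edgeR adjusted p = 0.113, 0.324 and 0.359). *Dusp16*, *Dusp2* and *Dusp1*, phosphatases that act on several MAP kinases, had log2 fold changes of 0.60, 0.71 and 0.74 and edgeR adjusted p of 0.0602, 0.0603 and 0.0976. *Dusp7* and *Dusp10*, the rest of this list that was tested, had log2 fold changes of -0.06 and -0.08 (edgeR adjusted p = 0.858 and 0.889). The values of *Dusp1* with vehicle were 30.7, 37.4 and 79.7 CPM, and vehicle replicate 3, the highest of its group also for *Dusp2*, *Dusp5* and *Dusp6*, fell among the AG636 values of 74.2 to 88.7 CPM. These genes, *Mapk3* and *Dusp8* below were chosen after their values were seen. *Dusp8*, with too few counts for the filter, had 23, 18 and 8 counts with vehicle and 1, 4 and 0 with AG636. Without the filter its log2 fold change was -2.95 (SE 0.70, edgeR adjusted p = 5.06e-04). Adjusted p of that fit are not directly comparable with those of the filtered fit. Without the filter the edgeR adjusted p of *Hras* was 1.90e-07 in place of 0.0115, and that of *Shc1* 0.0879 in place of 0.0477. Exons of *Ksr1*, *Phlda1* and *Dusp8* overlap predicted genes of the other strand that had 0 counts.

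For each member tested, the 1 other gene with the most similar profile was found by the root mean square difference of centred log2 CPM over the 6 samples. It was *Tmem87a* for *Nras* (difference 0.0414), *Josd2* for *Hras* (0.0472) and *4930522L14Rik* for *Dusp6* (0.0496). *Josd2* had a log2 fold change of -0.94 and *4930522L14Rik* one of 1.19. For the members that were not called, it was *Foxn3* for *Spred1* (0.0671), *Ccdc15* for *Spred2* (0.0661), *Gm43462* for *Spry2* (0.0895) and *Rufy4* for *Dusp5* (0.146). With 11092 genes and 6 samples, close profiles are found for many genes.

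Totals ranged from 4634963 to 7906589 counts per sample, and mitochondrial transcripts took between 2.92% and 4.50%. The immature myeloid markers *Kit*, *Cd34*, *Myb* and *Mpo* were present in every sample, and *Kit*, with 38.5 and 42.6 CPM, had a log2 fold change of 0.15 (edgeR adjusted p = 0.551). They belong to a list of 7 markers of the leukemia gate and of immature myeloid cells, in which *Ptprc* was called higher and none lower. *Mpo* had a log2 fold change of -0.65 and was not called (edgeR adjusted p = 0.266). Of 7 monocyte and macrophage markers, *C1qb* was called higher, with sums of 88.1 to 135 CPM with vehicle and 144 to 228 CPM with AG636, and of 5 mast cell and basophil markers *Cpa3* was called higher, with overlapping sums of 315 to 553 and 441 to 1028 CPM. The 5 T cell markers summed to at most 3.39 CPM and the 4 stromal and endothelial markers, of which *Cdh5* and *Lepr* had 0 counts throughout, to at most 1.599 CPM. The 4 B cell markers summed to between 5.51 and 19.0 CPM, nearly all of it *Cd79b*.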

How the data were processed

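The 6 samples were RNA libraries of sorted I1DN cells, from 3 mice given vehicle and 3 given AG636. The authors deposited raw counts per gene and sample. Libraries were made with a 3′ mRNA kit, reads under Q30 were removed, and the rest were trimmed (cutadapt), aligned to mm10 (HISAT2) and assigned to genes (featureCounts of subread). The submitters' processing notes give versions 1.9.1, 2.0.4 and 1.5.0-p3 of these tools. The annotation release, the use of strand and the handling of multi-mapping reads are not given in the sources used here. Symbols came from GENCODE M21 and matched 54723 identifiers.

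The deposited counts were fitted with edgeR 4.0.16 under R 4.3.3 (filterByExpr, minimum count 10, minimum total 15, TMM, quasi-likelihood test without a block), with limma 3.58.1 and DESeq2 1.42.0 as alternatives. P values were adjusted by the Benjamini-Hochberg method over all genes tested. The standard error was the size of the log2 fold change over the square root of F. Permutation tests of levels used log2 of CPM plus 0.5, and ratios had 0.5 added to each count. The scripts were tested on simulated data. Replicates differed by more than sampling noise (chi-square per degree of freedom from 6.76 to 16.0). Floors of 3 counts cover counting error only.

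The 9 members and all lists were chosen with earlier results of these data known. The rule for named genes was all members, every pathway gene called (the 4 with the lowest adjusted p where more of a list were called), any listed gene with 0 counts throughout, and the gene most like each member. Alternatives were DESeq2, limma-voom, median-of-ratios size factors, library size alone, no filter, a stricter filter of 10 counts or more in all samples, a replicate block, omitting each mouse in turn, and an adjusted p under 0.01. Some items are not reported here.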

Additional observations from a re-analysis of the deposited data

How the results depend on the processing

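The numbers of members called, 1 higher and 1 lower, were the same in 13 alternatives, with *Dusp6* and *Hras* past 0.05 in each of them, and at an adjusted p under 0.01 the number of members called lower was 0 while *Dusp6* remained. Leaving out each mouse gave 1 and 1 throughout. The number of pathway genes called higher, 1, was 4 with DESeq2, 3 with limma-voom, 5 with library size alone, 7 without a filter, 2 with the replicate block and 0 at an adjusted p under 0.01, and ranged from 0 to 5 when single mice were left out. It was 0 without vehicle replicate 1, vehicle replicate 2 or AG636 replicate 3, 2 without AG636 replicate 2 and 5 without vehicle replicate 3. Genes gained were *Rasa3* with DESeq2, library size alone, no filter, the replicate block and without AG636 replicate 2, *Dusp2* and *Dusp1* with DESeq2, limma-voom, no filter and without vehicle replicate 3, and *Rasa2* without vehicle replicate 3, among others. The number called lower, 3, was 2 with DESeq2, 2 with the replicate block, 1 with library size alone and 1 at an adjusted p under 0.01. It ranged from 1 to 3 when single mice were left out, with 1 without vehicle replicates 1 or 2 or AG636 replicates 1 or 3. Without a filter, without vehicle replicate 3 or without AG636 replicate 2 it stayed at 3, but with *Dusp8* in place of *Shc1*. The cause of these changes was not tested.

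Of the members that were not called, *Nras*, *Spry1*, *Spred1* and *Spred2* changed sign in some alternatives. *Spred2* had a log2 fold change of 0.036 with library size alone. When single mice were left out, log2 fold changes ranged from -0.023 to 0.15 for *Nras*, from -0.046 to 0.42 for *Spred1* and from -0.35 to 0.092 for *Spred2*, and differences of mean log2 CPM from -0.015 to 0.17 for *Nras*, from -1.12 to 0.056 for *Spry1*, from -0.056 to 0.40 for *Spred1* and from -0.33 to 0.046 for *Spred2*. Log2 fold changes ranged from -1.11 to -0.73 for *Hras*, from 0.87 to 1.29 for *Dusp6*, from 0.16 to 0.73 for *Dusp5* and from 0.14 to 0.60 for *Spry2*, all without a change of sign. The ratio differences kept their sign, from -1.19 to -0.83 for *Hras* over *Nras*, from -0.99 to -0.47 for *Dusp5* over *Dusp6* and from 0.16 to 0.39 for *Spred1* over *Spred2*.

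Replicate numbers name different mice. Deviations from the group means correlated across genes at -0.06, -0.18 and 0.22 between samples of the same number, so the numbers were not taken to pair the samples. With the replicate block, *Hras* and *Dusp6* had log2 fold changes of -0.88 and 1.096 (edgeR adjusted p = 0.0123 and 0.0117), 915 genes were called higher and 1046 lower over all genes, and *Shc1* was no longer called (edgeR adjusted p = 0.0777). *Dusp4* and *Spry1* were fitted only without the filter, with SEs of 0.64 and 0.76 on the log2 scale.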
